A study of Mus musculus with 12 samples.

Results

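Both arms of the mouse microRNAs miR-28a, miR-151 and miR-708 were followed through 5 kinds of cells. They are 6 of the 1549 features in a count table of small RNA reads, chosen by name and not by their values: mmu-miR-28a-5p, mmu-miR-28a-3p, mmu-miR-151-5p, mmu-miR-151-3p, mmu-miR-708-5p and mmu-miR-708-3p, written here without the species prefix. No row for another miR-28 gene was found in the table. The cells were androgenetic haploid embryonic stem cells (ESC), which hold a single chromosome set of paternal origin, from 3 lines: 2 libraries were made from A129-17, 3 from A129-6 and 2 from A129-2. They were set beside R1, a diploid mouse ESC line (2 libraries), and round spermatids (RS, 3 libraries), the haploid germ cells that meiosis produces in the testis. All groups are labelled wild type (WT) and sorted. Spermatids came from the testes of 129Sv males, whose ages are not given in the sources used here. Haploid ESC were kept in serum with LIF and 2i (PD0325901 and CHIR99021), and their haploid fraction was enriched from time to time by Hoechst sorting. The labels call the replicates independent sorts, and do not say that they came from separate cultures or animals. SDs and p-values therefore describe how far these sorted samples vary, and that variation may be technical. R1 was the 1 diploid line, so diploidy and line identity cannot be told apart.

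A microRNA precursor is a hairpin cut by Drosha and Dicer into a duplex of a 5p and a 3p arm. One arm is usually loaded into an Argonaute protein and the other is degraded, and which arm dominates can differ between tissues. The loaded arm finds its target messenger RNAs mainly by pairing through its seed, bases 2 to 8. miR-28 is known as a restraint on mature B cells and B-cell lymphoma, and in human colorectal cancer cells its arms were found to act on different targets. miR-151 is known from human liver cancer, where it acts on cell migration together with the kinase encoded by its host gene. miR-708 is known in mouse as a microRNA induced with its host gene by the endoplasmic reticulum stress factor CHOP.

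The arms of miR-28a and miR-708 are shown because their sequences show which of them share a seed. They are the RefSeq mature sequences on GRCm38.p6, 5′ to 3′, with the seed in capitals.
miR-28a-5p: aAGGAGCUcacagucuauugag
miR-708-5p: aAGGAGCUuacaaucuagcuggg
miR-28a-3p: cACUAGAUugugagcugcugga
miR-708-3p: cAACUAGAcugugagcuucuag
The 5p arms of miR-28a and miR-708 had the same seed, and no other mature microRNA among 1679 in the reference table had it. Counted from the 5′ end, 16 of 22 positions were identical, and miR-708-5p differed from miR-28a-5p by C9U, G13A, U18G, U19C, G20U and A21G. The 3p arms had different seeds, each found in 1 of the 1679 sequences. With miR-708-3p shifted by 1 base, 17 of 21 positions of the 3p arms were identical. The GC content was 45.5% for miR-28a-5p, 47.8% for miR-708-5p, 50% for miR-28a-3p and 45.5% for miR-708-3p. miR-151-5p and miR-151-3p are named only, so a seed shared by all 3 microRNAs was not checked here.

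Each precursor lies in an intron of a protein-coding gene on the same strand, by the GENCODE annotation of GRCm38. Mir28a (chr16:24827855-24827940, plus strand) lies in Lpp (chr16:24393507-24992578), which encodes a focal adhesion protein. Mir151 (chr15:73254815-73254882, minus strand) lies in Ptk2 (chr15:73205102-73423280), which encodes focal adhesion kinase. Mir708 (chr7:96249424-96249532, plus strand) lies in Tenm4 (chr7:96171246-96911093), which encodes the transmembrane protein teneurin-4. None overlapped an exon of its host. The miR-28a arms lie at chr16:24827868-24827889 (5p) and chr16:24827908-24827929 (3p), and the miR-708 arms at chr7:96249450-96249472 (5p) and chr7:96249496-96249517 (3p). The build behind the authors' counts is not given in the sources used here.

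ESC libraries held 3709786 to 9176080 counted reads and spermatid libraries 155232 to 243714, so spermatid values have wide counting intervals. Levels are given as CPM, the count of an arm scaled to the total of all counted reads, and fold changes come from a fit that scales libraries by the TMM method. TMM factors over all libraries ran from 0.47 to 1.31 in ESC and from 1.89 to 2.63 in RS, so the choice of scaling weighs on comparisons with spermatids. A129-6 replicate 3 had the lowest factor among the ESC (0.70 in the fit of ESC alone). The labelled cell types showed in their markers: 6 microRNAs of the pluripotency-linked miR-290 cluster summed to 76682 to 138970 CPM in the haploid lines, 192067 to 192476 in R1 and 57.4 to 2557 in RS. Of 6 male germ cell microRNAs the sum was 2784 to 11643 CPM in the haploid lines, 1142 to 1206 in R1 and 286619 to 387330 in RS. RS replicate 2 had the highest sum of ESC markers among the spermatids. Each haploid line had 1 germ cell marker at 0 in all its libraries, miR-34b-5p in A129-17 and A129-6 and miR-449a-5p in A129-2, and both microRNAs that mark Sertoli and Leydig cells summed to 0.412 CPM or less in ESC and 90.0 to 142 CPM in RS. In bulk samples, fewer cells of a type and less RNA per cell cannot be told apart.

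Together the 6 arms made up 0.655% to 1.47% of counted reads in the haploid lines, 0.238% to 0.270% in R1 and 0.203% to 0.325% in RS. One arm accounted for most of this in the haploid lines, where miR-151-3p held 96.2% to 98.7% of the reads of the 6 arms. It held 48.6% to 50.3% of them in R1 and 37.9% to 75.1% in RS.

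**Figure D1:**
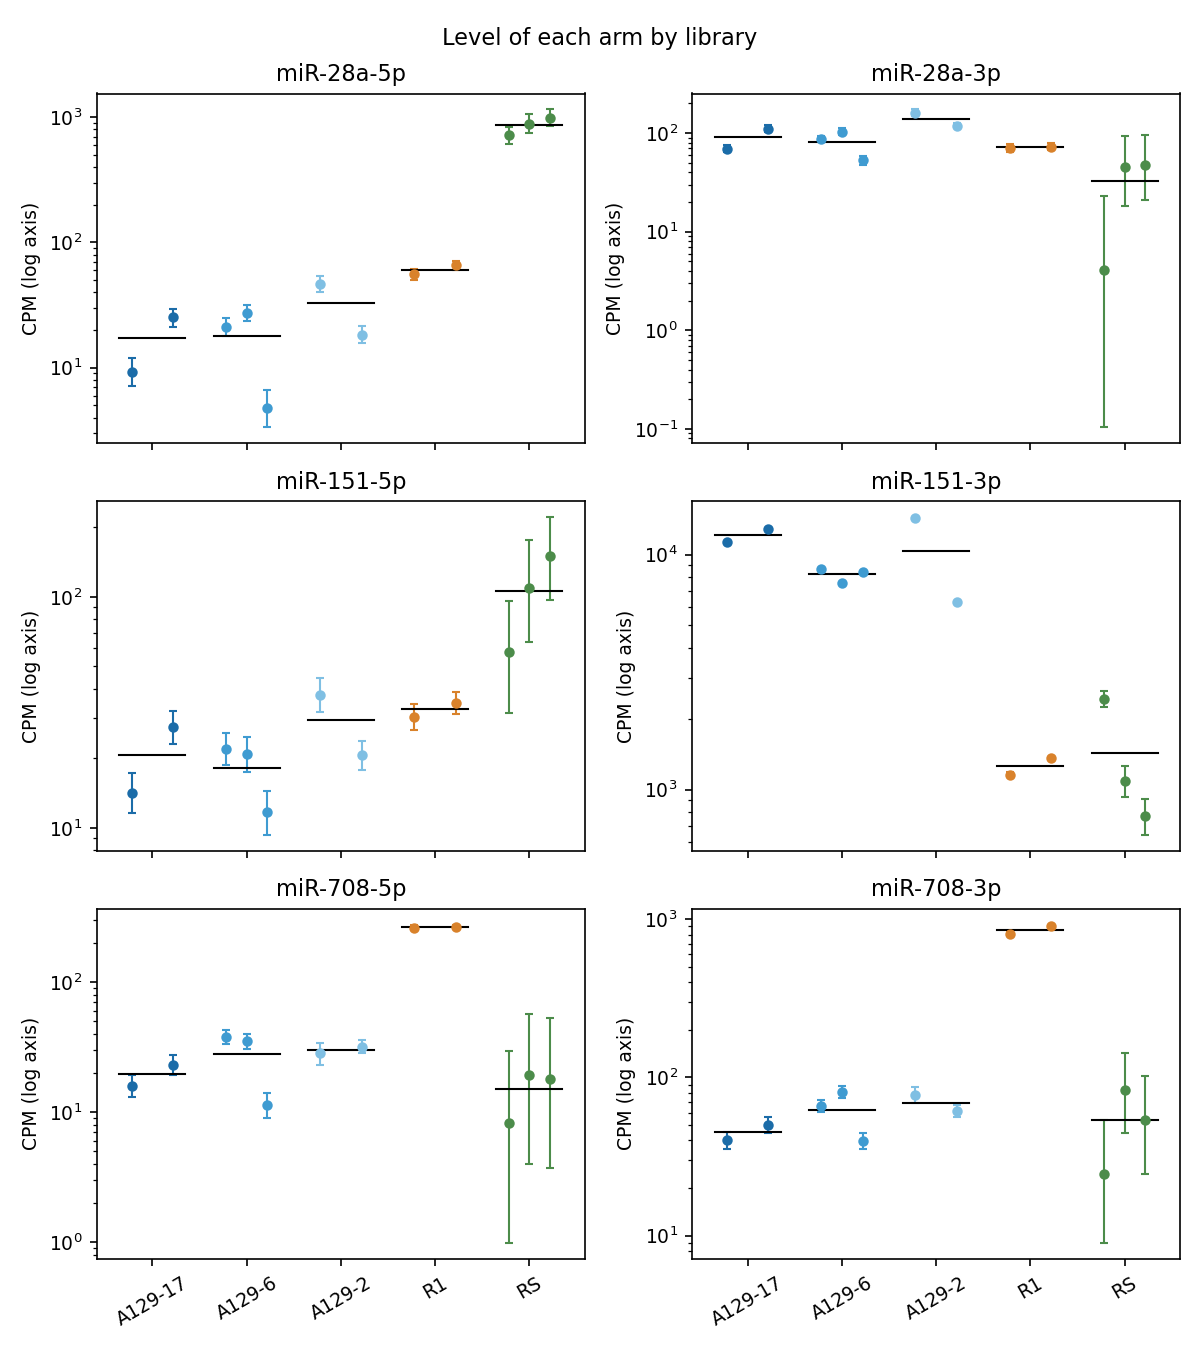
Level of each of the 6 arms in CPM of counted reads (log axis), by group. Points are libraries with 95% exact binomial intervals for counting error, and horizontal lines are group means. miR-151-3p lay between 6303 and 14345 CPM in every haploid library, above all R1 and RS libraries, whereas both arms of miR-708 were highest in R1 and miR-28a-5p was highest in RS.

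How the haploid lines differed from diploid ESC was asked first, in the 9 ESC libraries. The haploid lines had more miR-151-3p and less of both miR-708 arms than R1, in every library. miR-28a-5p was lower and miR-28a-3p slightly higher, and miR-151-5p did not pass the test. So 5 of the 6 arms were called by edgeR's quasi-likelihood test at an adjusted p of 0.05, 2 higher and 3 lower. Of all 757 features tested, 70.5% were called (35.3% higher and 35.3% lower), so 5 of 6 is not far from the background and says nothing particular about these arms as a group. When spermatids joined the fit, the median of all features shifted by 0.61 and 66.0% of the called features were higher, against 50% here. RLE, upper-quartile and total-count scaling shifted the median by -0.25, 0.31 and -0.13.

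miR-151-3p had 11351 and 12905 CPM in line A129-17, 8713, 7558 and 8480 in line A129-6, and 14345 and 6303 in line A129-2, against 1158 and 1357 in R1. All 7 haploid libraries stood above both R1 libraries. The replicates of A129-2 were farthest apart in CPM, and those of A129-6 once scaled by the TMM factors. The mean was 10234 ± 1940 CPM over the haploid lines (SD, n = 3 lines) and 1258 ± 140 in R1 (SD, n = 2). The fit put it 8.82-fold above R1 (log2 3.14, SE 0.33, edgeR adjusted p = 6.73e-07), and the call held in all 19 alternatives run for it. By line, the log2 difference from R1 was 3.64 in A129-17 (SE 0.37), 2.91 in A129-6 (SE 0.34) and 2.87 in A129-2 (SE 0.36).

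miR-708-5p had 16.0 and 23.0 CPM in line A129-17, 37.7, 35.2 and 11.4 in line A129-6, and 28.3 and 31.9 in line A129-2, against 260.5 and 264 in R1. miR-708-3p had 40.1 and 50.3 CPM in line A129-17, 65.9, 81.3 and 39.5 in line A129-6, and 77.4 and 61.3 in line A129-2, against 808 and 902 in R1. For both arms the highest haploid library was far below the lower R1 library, and in CPM A129-6 replicate 3 was the lowest haploid library. The 5p arm was 9.52-fold lower (log2 -3.25, SE 0.28, edgeR adjusted p = 7.09e-08) and the 3p arm 13.6-fold lower (log2 -3.76, SE 0.20, edgeR adjusted p = 4.60e-10). Both calls held in all 20 alternatives and in each line against R1, with log2 differences for the 5p arm of -3.40 in A129-17, -3.19 in A129-6 and -3.17 in A129-2. For the 3p arm they were -3.88 in line A129-17, -3.69 in line A129-6 and -3.72 in line A129-2.

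miR-28a-5p had 9.29 and 25.2 CPM in line A129-17, 21.1, 27.4 and 4.81 in line A129-6, and 46.9 and 18.3 in line A129-2, against 55.6 and 65.9 in R1. The groups did not overlap, but the haploid libraries spread more widely than the R1 libraries. It fell by 1.45 on the log2 scale (SE 0.40, edgeR adjusted p = 0.00432). The call was lost with all 12 libraries in the fit (log2 -0.61, adjusted p = 0.172) and after GC correction (log2 -0.77, adjusted p = 0.107), and A129-2 alone against R1 did not pass (log2 -1.08, adjusted p = 0.0911). The A129-2 difference passed with no filter, with DESeq2 and without A129-6 replicate 3 or either A129-17 replicate, with adjusted p-values from 0.0312 to 0.0446. That of A129-17 lost its call in 4 of 17, which were upper-quartile scaling (adjusted p = 0.0803), the stricter filter (0.0833) and the fits without A129-17 replicate 1 (0.151) or R1 replicate 2 (0.0706).

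miR-28a-3p had 69.7 and 111 CPM in line A129-17, 87.0, 104 and 53.0 in line A129-6, and 160.4 and 119 in line A129-2, against 70.4 and 72.8 in R1. In CPM the haploid libraries lay on both sides of R1 here, an overlap that depends on the scaling, since they lay above R1 once scaled by the TMM factors. Its difference was at the edge of the threshold (log2 0.61, SE 0.26, edgeR adjusted p = 0.0500), and 13 of 20 alternatives lost it, so this rise is not firm. miR-151-5p had 14.2 and 27.3 CPM in line A129-17, 21.9, 20.8 and 11.7 in line A129-6, and 37.7 and 20.7 in line A129-2, against 30.3 and 34.9 in R1. It stood at log2 -0.45 (SE 0.31, edgeR adjusted p = 0.195), turned positive when spermatids joined the fit (0.39) and was called lower by DESeq2 (-0.69, adjusted p = 0.0423).

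Against R1 taken line by line, 4 of 6 arms were called in A129-17 (66.2% of all features), 4 in A129-6 (67.1%) and 4 in A129-2 (59.8%). miR-151-3p and both miR-708 arms were among them in every line. These comparisons share the R1 libraries.

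**Figure D2:**
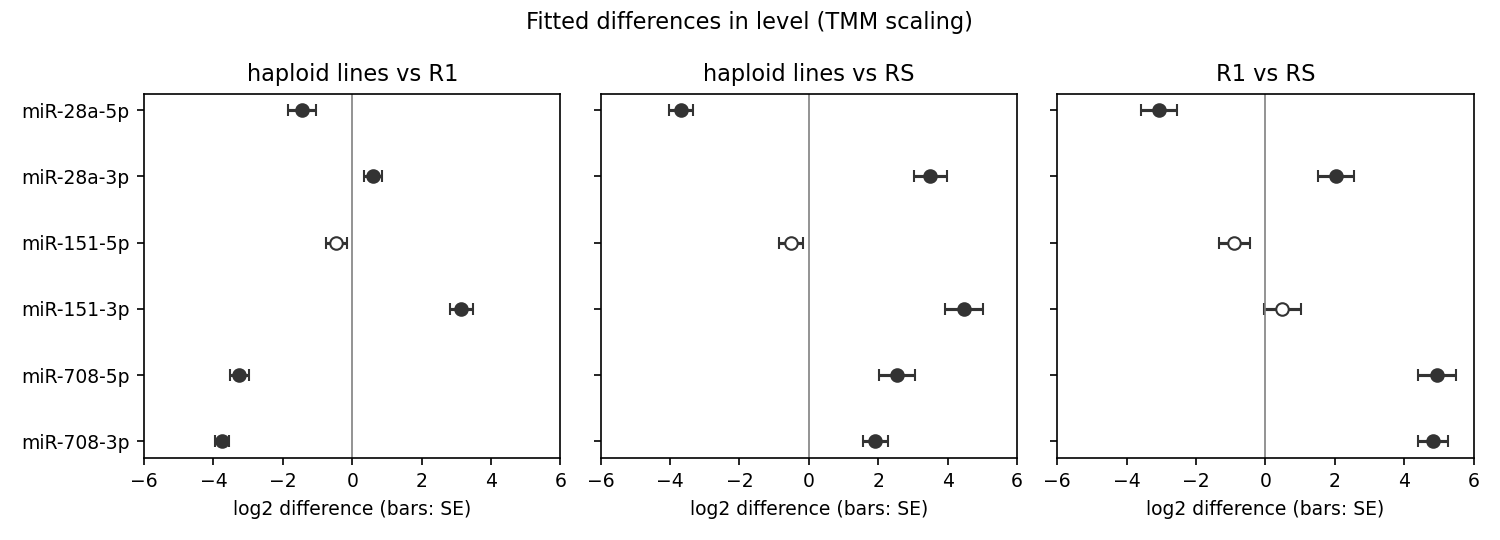
Fitted log2 differences in level of the 6 arms, with SE as bars, for the haploid lines against R1, the haploid lines against RS and R1 against RS. Filled points passed an adjusted p of 0.05 and open points did not. Both miR-708 arms lie left of 0 against R1 (log2 -3.25 and -3.76) and right of 0 against RS (2.54 and 1.92), and miR-28a-5p lies left of 0 in all 3 panels.

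The haploid lines were compared with each other next. None of the 6 arms differed by edgeR's F-test over the lines, where 3.83% of 757 features were called. At an unadjusted p under 0.05 there was 1 arm, miR-151-3p (edgeR adjusted p = 0.213). DESeq2 called 0 of 6 arms over the lines, and 85 of 757 features. Pair by pair, 0 of 18 tests were called by edgeR, with log2 differences from -0.69 to 0.78, and 2 passed unadjusted. DESeq2 called 0 of 6 in each pair. Of 757 features it called 62 between A129-17 and A129-2, 41 between A129-6 and A129-2 and 23 between A129-17 and A129-6. The same edgeR tests called 0% of all features between A129-17 and A129-6 and between A129-17 and A129-2, and 2.38% between A129-6 and A129-2. Both unadjusted passes were miR-151-3p, higher in A129-17 than in A129-2 (log2 0.78, SE 0.33, adjusted p = 0.176) and than in A129-6 (0.73, SE 0.30, adjusted p = 0.280). Without A129-6 replicate 3, miR-151-3p passed over the lines (adjusted p = 0.0351) and between A129-17 and A129-6 (log2 1.08, adjusted p = 0.0343).

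In CPM, markers of fibroblasts and other mesenchymal cells moved with part of the spread between replicates. All 6 were detected in every library. Their summed level was 5958 to 26969 CPM in the haploid lines, 15011 to 16709 in R1 and 23333 to 67592 in RS. In A129-2 it was 26969 CPM in replicate 1 and 6968 in replicate 2, and in CPM 5 of the 6 arms were higher in replicate 1 as well. These were miR-151-3p (14345 and 6303 CPM), miR-28a-5p (46.9 and 18.3), miR-151-5p (37.7 and 20.7), miR-28a-3p (160.4 and 119) and miR-708-3p (77.4 and 61.3), while miR-708-5p was lower there (28.3 and 31.9). CPM leaves out the TMM factors, which were 1.38 in replicate 1 and 0.96 in replicate 2 in the fit of ESC alone. Scaled by them, miR-28a-3p and miR-708-3p were not higher in replicate 1. A129-6 replicate 3 had the lowest mesenchymal marker sum and in CPM was the lowest haploid library for miR-28a-5p, miR-28a-3p, miR-151-5p and both miR-708 arms, but not for miR-151-3p. This library also had the lowest TMM factor of the ESC (0.70), so low CPM there is partly a matter of scaling. Scaled by the factors, it was not the lowest haploid library for miR-708-3p. Its miR-290 cluster sum was also the lowest of the haploid libraries (76682 CPM), and its germ cell sum the highest (11643 CPM). In every alternative, those without each of these libraries included, miR-151-3p in the mean of the haploid lines exceeded R1 by log2 2.91 or more. For single lines the lowest log2 differences were 2.50 in A129-2, 2.59 in A129-6 and 3.27 in A129-17. The part of the mesenchymal markers in the levels of the arms was not tested. Leaving out single libraries cannot test it, since all 6 markers were detected in every library.

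Both kinds of ESC were then set against round spermatids, in a fit of all 12 libraries with 806 features. Both kinds of ESC had much less miR-28a-5p than spermatids and, in the TMM fit, more miR-28a-3p. The haploid lines had more miR-151-3p than spermatids, and R1 had more of both miR-708 arms. In the haploid lines against RS, 4 arms were called higher, 1 lower and 1 not at all by edgeR, where 65.4% of all features were called (44.5% higher and 20.8% lower). In R1 against RS, 3 were called higher, 1 lower and 2 not at all, where 53% were called (33.6% higher and 19.4% lower). The 2 comparisons share the spermatid libraries.

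miR-28a-5p was at 4.81 to 46.9 CPM in the haploid libraries and 55.6 and 65.9 in R1, against 714, 889 and 990 CPM in RS, where it rested on 174, 138 and 165 reads. The groups were far apart, with every ESC library below every spermatid library. It was 12.8-fold lower in the haploid lines than in RS (log2 -3.68, SE 0.34, edgeR adjusted p = 2.28e-09) and 8.39-fold lower in R1 (log2 -3.07, SE 0.52, adjusted p = 2.30e-05). All 21 alternatives kept both calls, and total-count scaling gave larger differences of -5.33 and -3.83.

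miR-28a-3p went the other way. It was at 53.0 to 160.4 CPM in the haploid libraries and 70.4 and 72.8 in R1, against 4.10, 45.1 and 48.0 CPM in RS from 1, 7 and 8 reads. Every ESC library stood above every spermatid library. The single read of RS replicate 1 gives a 95% exact binomial interval of 0.104 to 22.9 CPM. Those of replicates 2 and 3 are 18.1 to 92.9 and 20.7 to 94.6 CPM. Both cover the R1 values and some haploid ones, so for these libraries the separation lies within counting error. The fitted log2 difference was 3.50 in the haploid lines against RS (SE 0.47, edgeR adjusted p = 6.62e-07) and 2.04 in R1 against RS (SE 0.52, adjusted p = 0.00198). After GC correction neither was called (0.72, adjusted p = 0.178, and 0.06, adjusted p = 0.931). For R1 the call was also lost with upper-quartile (1.04, adjusted p = 0.103) and total-count scaling (1.24, adjusted p = 0.115), and for the haploid lines these scalings gave 1.92 and 1.73.

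miR-151-3p was at 6303 CPM or more in the haploid libraries and at 1158 and 1357 in R1, against 2437, 1089 and 768 CPM in RS. The spermatid libraries lay below every haploid library and on both sides of R1. The fit put the haploid lines 22.1-fold above RS (log2 4.47, SE 0.54, edgeR adjusted p = 1.26e-07) with TMM, and total-count scaling gave a smaller log2 difference of 2.82. R1 against RS did not pass (log2 0.49, SE 0.54, adjusted p = 0.479). Its sign there turned with upper-quartile (-0.51) and total-count scaling (-0.19), and it was called without RS replicate 1 (1.29, adjusted p = 0.0156) or replicate 2 (1.34, adjusted p = 0.0188), with no filter (1.48) and with scaling that left out the miR-290 cluster (1.42). RS replicate 1, highest in miR-151-3p, was also highest in mesenchymal markers (67592 CPM, against 23333 and 39869 in replicates 2 and 3) and in 7 markers of blood and endothelium (14390 CPM, against 1559 and 7811). The part of those cells in the spermatid level was not tested.

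miR-151-5p was at 11.7 to 37.7 CPM in the haploid libraries and 30.3 and 34.9 in R1. In RS it was at 57.4, 110 and 149.97 CPM, from 14, 17 and 25 reads. Every ESC library was below every spermatid library in CPM. The 95% exact binomial interval of RS replicate 1, 31.4 to 96.4 CPM, reached below R1 replicate 2 and the highest haploid library. With TMM miR-151-5p was not called. Its log2 difference was -0.51 in the haploid lines against RS (SE 0.35, edgeR adjusted p = 0.206) and -0.90 in R1 against RS (SE 0.45, adjusted p = 0.101). With total-count scaling both passed, at -2.23 (adjusted p = 6.77e-05) and -1.68 (adjusted p = 0.0186), and with upper-quartile scaling as well (-2.09, adjusted p = 1.19e-05, and -1.90, adjusted p = 0.00117). The haploid difference also passed with RLE scaling (-0.95, adjusted p = 0.0208), the stricter filter (-0.83, adjusted p = 0.0412), DESeq2 (-0.94, adjusted p = 0.00866) and without A129-17 replicate 2 (-0.94, adjusted p = 0.0417), 6 of 20 alternatives in all. In R1 against RS it was called without RS replicate 1 (-1.17, adjusted p = 0.0352) and stood at 0.04 without replicate 2 and 0.11 without replicate 3.

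miR-708-5p was at 11.4 to 37.7 CPM in the haploid libraries and 260.5 and 264 in R1, against 8.21, 19.3 and 18.0 CPM in RS from 2, 3 and 3 reads. miR-708-3p was at 39.5 to 81.3 CPM in the haploid libraries and 808 and 902 in R1, against 24.6, 83.7 and 54.0 CPM in RS from 6, 13 and 9 reads. The haploid libraries overlapped the spermatid libraries, and R1 lay far above both. The R1 level was 30.6-fold higher than RS for the 5p arm (log2 4.93, SE 0.55, edgeR adjusted p = 5.76e-08) and 28.4-fold higher for the 3p arm (log2 4.83, SE 0.44, adjusted p = 3.28e-09), and all 21 alternatives kept both. The haploid lines stood at 2.54 (SE 0.51, adjusted p = 0.000121) and 1.92 (SE 0.37, adjusted p = 8.89e-05) against RS. Those calls were lost with upper-quartile (0.95 and 0.34), total-count (0.81 and 0.15) and GC-corrected fits (0.27 and 0.22), with adjusted p-values from 0.107 to 0.782. Against RS the median of all features shifted by -1.36 with upper-quartile and -1.50 with total-count scaling in the haploid lines, and by -0.88 and -0.64 in R1. The share of called features that were higher was 48.6% and 46.1% under these scalings in the haploid lines, against 68.1% with TMM, and 49.6% and 53.5% in R1, against 63.5% with TMM.

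By mean CPM the order was RS, R1 and then the haploid lines for miR-28a-5p and miR-151-5p. miR-28a-3p ran from A129-2 through A129-17, A129-6 and R1 down to RS. miR-151-3p ran from A129-17 through A129-2, A129-6 and RS down to R1, and both miR-708 arms were led by R1, with A129-2 next, then A129-6. Neighbours that did not pass the edgeR test were the haploid lines among themselves for all 6 arms and R1 and RS for both miR-151 arms. A129-2 and R1 were such neighbours for miR-28a-5p (adjusted p = 0.0911) and miR-151-5p (adjusted p = 0.522), as were A129-6 and R1 for miR-28a-3p (adjusted p = 0.410). Single lines were not tested against RS.

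The share of a precursor's reads that came from its 5p arm needs no scaling between libraries. The arms behaved differently at the 3 loci: miR-28a reads came mostly from the 3p arm in the haploid lines and from the 5p arm in spermatids, miR-151 stayed with its 3p arm to differing degrees, and no difference in the miR-708 ratio passed the test. Differences in log2(5p/3p) were tested with limma over all precursors with both arms above the filter, 213 in ESC and 229 in all libraries. In the haploid lines against R1, 2 of 3 loci were called, where 56.8% of precursors were.

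**Figure D3:**
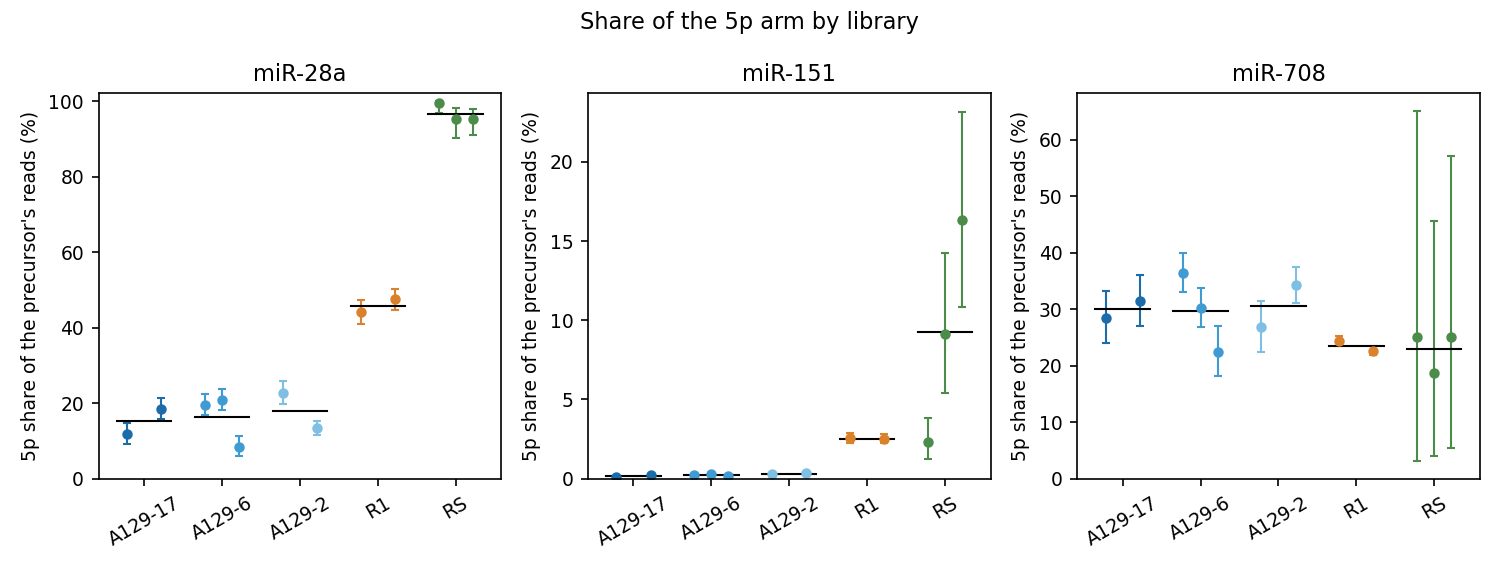
Share of the 5p arm among the reads of both arms of each precursor, in percent on a linear axis that differs between panels, by group. Points are libraries with 95% exact binomial intervals, and horizontal lines are group means. The miR-28a share averaged 16.5% in the haploid lines, 45.8% in R1 and 96.7% in RS, and that of miR-708 lay between 18.8% and 36.4% in every library.

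The 5p arm held 11.8% and 18.5% of miR-28a reads in line A129-17, 19.5%, 20.9% and 8.31% in line A129-6, and 22.6% and 13.4% in line A129-2. It held 44.1% and 47.5% in R1, and 99.4%, 95.2% and 95.4% in RS. The 3 kinds of cells did not overlap, and the 95% exact binomial intervals of the libraries ran from 5.86% to 25.8% in the haploid lines, 41.0% to 50.3% in R1 and 90.3% to 100.0% in RS. Haploid ESC reads thus came mostly from the 3p arm, R1 reads from both arms nearly equally, and spermatid reads almost wholly from the 5p arm. The log2 ratio was lower in the haploid lines than in R1 by 2.16 (difference -2.16, SE 0.49, limma adjusted p = 0.00423), a call that was lost without R1 replicate 2 (-2.06, adjusted p = 0.0551). Against RS it was -7.52 in the haploid lines (SE 0.62, adjusted p = 2.56e-06) and -5.36 in R1 (SE 0.81, adjusted p = 0.000498), with all 16 alternatives keeping both calls. By size these differences ranked 11 and 12 among 229 precursors, and the one against R1 ranked 73 among 213. In the haploid lines against RS 63.3% of precursors were called, and in R1 against RS 34.1%.

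miR-151 was read almost only from its 3p arm in the haploid lines. The 5p share was 0.125% and 0.211% in line A129-17, 0.251%, 0.275% and 0.137% in line A129-6, and 0.262% and 0.327% in line A129-2. It was 2.55% and 2.51% in R1, and 2.30%, 9.14% and 16.3% in RS. Haploid libraries had 305 to 798 reads of the 3p arm for each read of the 5p arm, R1 libraries 38.3 and 38.9, and RS libraries 42.4, 9.94 and 5.12. The 95% intervals ran from 0.102% to 0.377% in the haploid lines, 2.23% to 2.89% in R1 and 1.26% to 23.2% in RS. RS replicate 1 stood with R1, and the other two spermatid libraries stood above it. The difference in log2 ratio was -3.58 in the haploid lines against R1 (SE 0.33, limma adjusted p = 1.47e-05) and -5.19 against RS (SE 0.56, adjusted p = 1.64e-05), kept in all 14 and 16 alternatives. R1 against RS did not pass (-1.61, SE 0.73, adjusted p = 0.122), but did without RS replicate 1 (-2.46, adjusted p = 0.00256). Of the levels behind the ratio, that of the 3p arm was higher in the haploid lines than in R1 and that of the 5p arm did not pass the test.

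miR-708 kept its 3p arm in the majority everywhere. The 5p share was 28.5% and 31.4% in line A129-17, 36.4%, 30.2% and 22.4% in line A129-6, and 26.8% and 34.2% in line A129-2. It was 24.4% and 22.7% in R1, and 25%, 18.8% and 25% in RS, where it rested on 8, 16 and 12 reads. The groups overlapped, and the spermatid intervals ran from 3.19% to 65.1%. No difference passed: the log2 ratio differed by 0.47 in the haploid lines against R1 (SE 0.36, limma adjusted p = 0.286), 0.36 against RS (SE 0.34, adjusted p = 0.373) and -0.11 in R1 against RS (SE 0.44, adjusted p = 0.821). With 8 to 16 reads a library, a small difference from RS was not detectable. Both arms fell against R1, while the ratio of the arms ranked 182 among 213 precursors by size of difference.

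Between the haploid lines, limma called 0 of the 3 arm ratios, none at an unadjusted p under 0.05 either, and 0% of all 213 precursors.

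**Figure D4:**
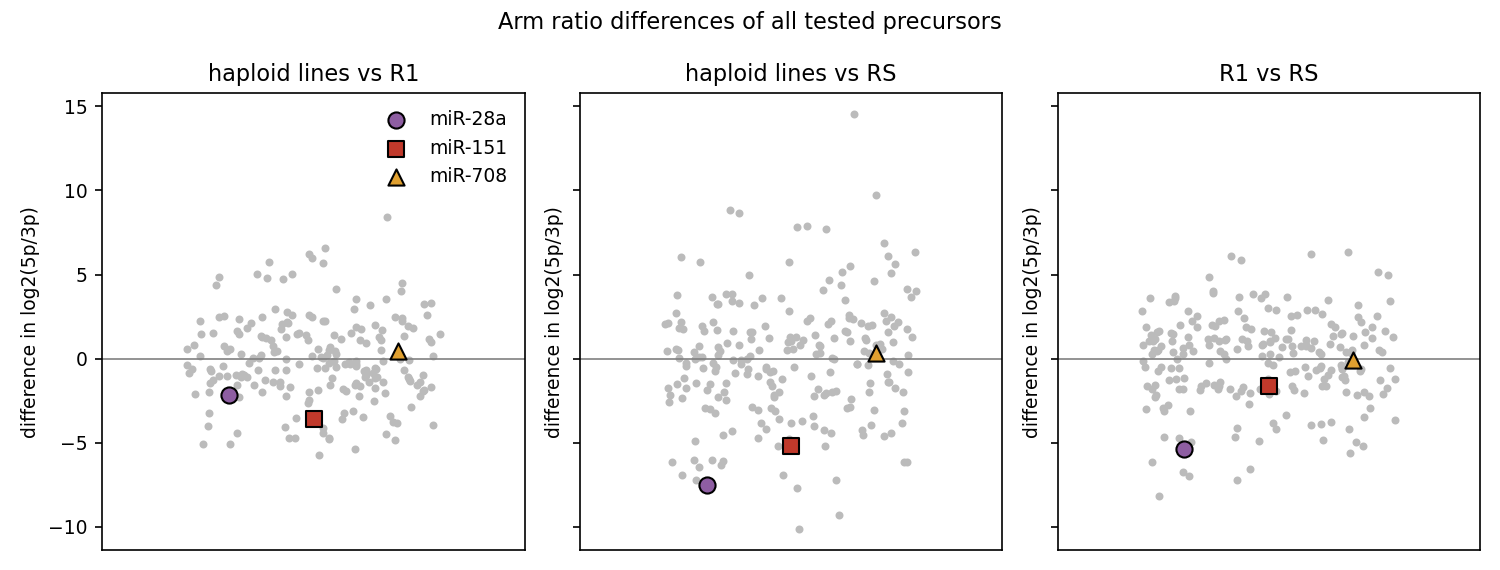
Difference in log2(5p/3p) of every tested precursor (grey points, 213 in the left panel and 229 in the others, spread sideways at random), with miR-28a, miR-151 and miR-708 marked. miR-28a lies at -7.52 and -5.36 in the comparisons with RS, and miR-708 lies near 0 in all 3 panels.

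Since miR-28a-5p and miR-708-5p carry the seed shown above, their reads were also added. The summed level was 25.3 and 48.2 CPM in line A129-17, 58.8, 62.5 and 16.2 in line A129-6, and 75.2 and 50.2 in line A129-2, against 316 and 330.4 in R1 and 722, 908 and 1008 in RS. The 3 kinds of cells did not overlap. The mean was 48.4 ± 13.2 CPM over the haploid lines (SD, n = 3 lines), 323 ± 10.2 in R1 (n = 2) and 879 ± 145 in RS (n = 3). These sums leave out the TMM factors, which were highest in RS. TMM-scaled means of miR-28a-5p and miR-708-5p were 30.7 and 38.1 CPM in the haploid lines. They were 46.3 and 200 in R1 and 389 and 6.63 in RS, so the gaps to RS were smaller on that scale. miR-28a-5p supplied 29.7% to 62.4% of the sum in the haploid libraries, 17.6% and 19.95% in R1, and 98.9%, 97.9% and 98.2% in RS. The seed was thus carried by both in the haploid lines, mostly by miR-708-5p in R1 and almost wholly by miR-28a-5p in spermatids. The sum was not tested.

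**Figure D5:**
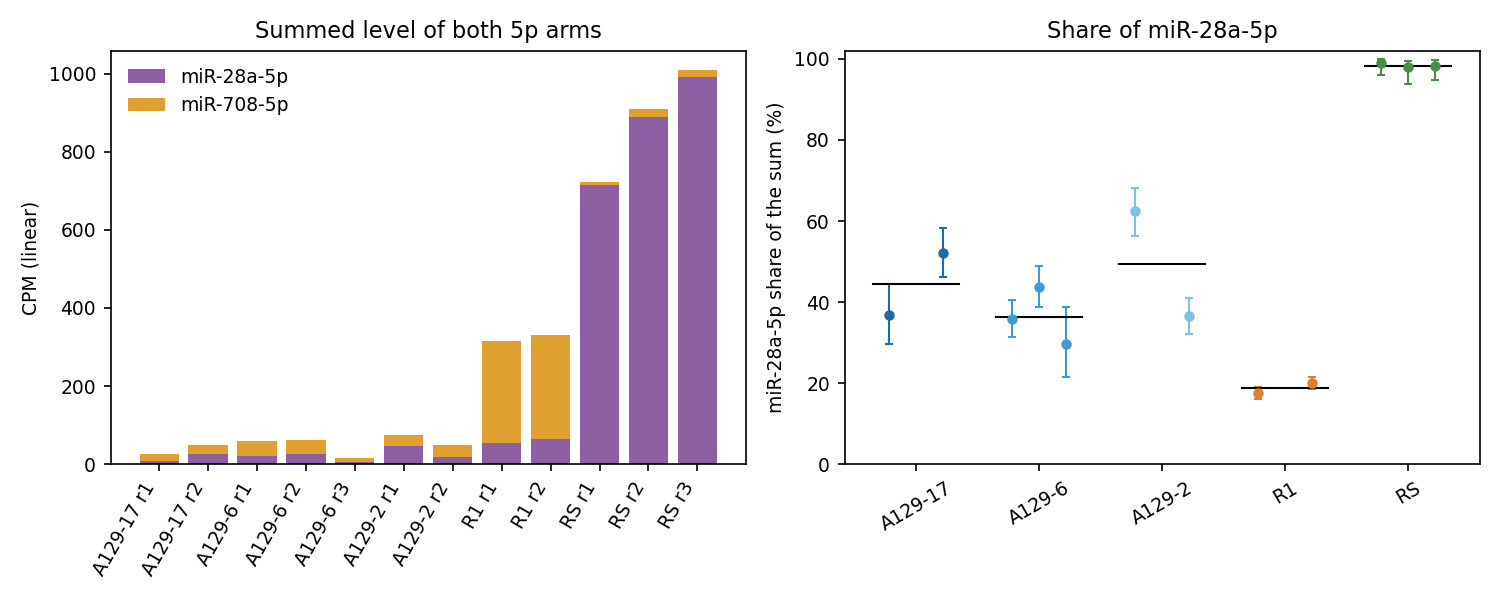
Left, summed CPM of miR-28a-5p and miR-708-5p in each library (stacked bars, linear axis from 0). Right, share of miR-28a-5p in that sum in percent, by group, with 95% exact binomial intervals and group means as lines. miR-28a-5p made up 17.6% and 19.95% of the sum in R1 and at least 97.9% in the RS libraries.

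The microRNAs whose pattern over the 12 libraries was most like each arm were found by Pearson's r of log2 normalised CPM, among 482 candidates. As a description, since the groups dominate these correlations and the libraries share their depth differences, miR-28a-5p was nearest to miR-30a-3p (r = 0.955) and to miR-34c-5p (0.954), a spermatid microRNA. miR-28a-3p was nearest to miR-3072-3p (0.977) and miR-669b-5p (0.966). miR-151-5p had no close match, with miR-486a-3p (0.786) and miR-486b-3p (0.782) first, and miR-486 is known from red blood cells. miR-151-3p was nearest to miR-466f-3p (0.981) and miR-5128 (0.978). miR-708-5p was nearest to miR-106b-5p (0.974) and miR-154-3p (0.963), and miR-708-3p to miR-380-5p (0.967) and miR-106b-5p (0.961). Within a precursor the arms had r = 0.976 for miR-708, -0.31 for miR-151 and -0.83 for miR-28a.

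Other microRNAs from introns of protein-coding genes gave a setting for the 3 loci. Of a list of 36, 34 were tested in the haploid lines against R1, where 35.3% of all features were called higher and 35.3% lower. By edgeR 3 of the 34 rose, 26 fell and 5 did not pass, with a median log2 difference of -1.29 beside 0.33 over all features. Among those that fell were miR-335-5p (log2 -7.20, SE 0.49), miR-16-5p (-4.07, SE 0.28) and miR-106b-5p (-3.20, SE 0.25), the last from an intron of Mcm7 and close to miR-708-5p in size of difference. Those that rose were miR-326-3p (3.77, SE 0.59), miR-330-3p (1.92, SE 0.30) and miR-211-5p (1.08, SE 0.25). In the haploid lines against RS, 7 of 35 were higher, 14 lower and 14 did not pass (median -0.54, beside 2.79 over all features). Of all features 44.5% were called higher and 20.8% lower there. In R1 against RS, 11 of the list were higher, 6 lower and 18 did not pass (median 0.26, beside 2.04), where 33.6% of all features were higher and 19.4% lower. The list holds a single arm of each microRNA, while all features include both arms and predicted microRNAs. Some mature sequences in it, miR-16-5p among them, come from more than 1 gene, so their reads cannot be credited to a single intron. No like list of microRNAs from outside introns was compared, so a trait of intronic microRNAs cannot be read from these counts.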

How the data were processed

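Small RNA of 12 libraries was sequenced on a NovaSeq instrument after ligation of 3′ and 5′ adapters, per the labels' protocols. The authors deposited raw read counts per microRNA, not normalised, for 1366 named mouse microRNAs and 183 predicted ones. Bowtie 0.12.9 and DESeq2 are named per the submitters' processing notes. Genome build, miRBase release and handling of reads with several matches are not given in the sources used here; reads of related microRNAs may be assigned to either.

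From the counts, CPM were computed over all counted reads. In R 4.3.3, edgeR 4.0.16 (filterByExpr with a minimum count of 10 and total of 15, TMM, quasi-likelihood F-test on group means, two-sided) was fitted to the 9 ESC libraries, and to all 12 for comparisons with RS, with Benjamini-Hochberg adjustment over all features and a threshold of 0.05. The haploid contrast weighs the 3 lines equally. Arm ratios, log2 of (5p + 0.5)/(3p + 0.5), were tested with limma 3.58.1. Intervals are exact Clopper-Pearson at 95% and cover counting error only, since PCR copies are not independent molecules. All 6 arms passed the filters, and the pipeline was tested on simulated counts. Alternatives were other scalings, filters and pseudocounts, DESeq2 1.42.0, a replicate block, left-out libraries, sums per line and a GC correction, for which 80.4% and 80.8% of tested features had a sequence (miR-151 had none). Named features were all 6 arms, their seed matches, the 2 most alike in pattern for each (mean of at least 10 CPM) and examples of the intronic list. The members, the lists and the tests were chosen with earlier results of these data known.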

Additional observations from a re-analysis of the deposited data

How the results depend on the processing

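Over all alternatives, 645 differences in the level of single arms kept direction and side of the threshold. Of the others, 38 lost a call, 28 gained one and 12 turned sign. In pairs of haploid lines only miR-151-3p is counted here. For arm ratios 135 kept both, 1 lost a call, 1 gained one and 1 turned sign. The F-tests over the lines, which have no direction, kept their side in 100 cases for levels and 36 for arm ratios, and 2 for miR-151-3p gained a call. Apart from the cases named with the results, sign turned for miR-151-5p in A129-17 against R1 with upper-quartile scaling (0.077) and the stricter filter (0.036) and in A129-2 against R1 with the stricter filter (0.052). Cases named above were miR-151-5p in haploid lines against R1 (0.39, all 12 libraries in the fit) and in R1 against RS (0.04 and 0.11, without RS replicate 2 or 3, with a range of -1.17 to 0.11 over single libraries left out), and miR-151-3p in R1 against RS (-0.51 upper-quartile, -0.19 total-count). For miR-151-3p in A129-6 against A129-2 it turned with total-count scaling (-0.32), the replicate block (-0.25) and without A129-2 replicate 2 (-0.18) or A129-6 replicate 3 (-0.26), with a range of -0.26 to 0.41 over single libraries left out, and for the miR-708 arm ratio in R1 against RS with edgeR's diffSpliceDGE (0.11). The causes were not tested.

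Counts of features called between lines moved most. For A129-17 against A129-2 (0) they were 13 with RLE scaling, 5 with upper-quartile scaling, 13 without the miR-290 cluster in the scaling, 60 with no filter, 70 with the replicate block and 62 with DESeq2. For A129-6 against A129-2 (18) they were 2 with total-count scaling, 41 with no filter and 41 with DESeq2. For A129-17 against A129-6 (0) they were 18 with no filter, 34 with the block and 23 with DESeq2. Over the 3 lines (29) they were 0 with total-count scaling, 82 with no filter, 3 with the stricter filter, 72 with the block and 85 with DESeq2. Among arm ratios, R1 against RS (78) gave 119 with a pseudocount of 2, 46 with a mean of at least 50 counts per arm and 28 with diffSpliceDGE, haploid lines against RS (145) gave 84 with that minimum and 79 with diffSpliceDGE, and between lines (0) there were 1 with at least 50 counts and 6 with the block. The minimum of 50 counts tested fewer precursors (124 in ESC and 116 in all libraries).

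No pairing by replicate number was seen. Of 21 same-numbered pairs across groups, 1 had a correlation of deviations over 0.1 and 3 were under -0.1 (range -0.16 to 0.13). Between groups of 2 libraries both numbers give the same value. The 21 are therefore not separate checks, and they cannot exclude a pairing. With the number as a block, miR-151-3p was called over the lines (adjusted p = 0.0386) and in A129-17 against A129-6 (log2 1.04, adjusted p = 0.0435), 1 arm of 6 in each, and miR-28a-5p in A129-2 against R1 (log2 -1.06, adjusted p = 0.0495).

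Leaving out 1 library at a time, a lone remaining sample being assumed to vary like the other groups, called 0 to 32 features in A129-6 against A129-2, 0 to 70 in A129-17 against A129-2, 0 to 40 in A129-17 against A129-6 and 0 to 80 over the lines, with 0 to 1 arm called in each of the last pair of comparisons. The highest count was without A129-17 replicate 1 in the first, and without A129-6 replicate 3 in the others. Arm ratios called were 75 to 127 for haploid lines against R1 (1 to 2 of the 3 loci), fewest without R1 replicate 1, and 0 to 42 between lines, most without A129-6 replicate 3; for R1 against RS 1 to 2 of 3 loci were called. Spermatid libraries with 1 to 13 reads of miR-28a-3p or a miR-708 arm, and 14 to 25 reads of miR-151-5p, limit every statement on those arms in RS.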
